A study of Mus musculus with 12 samples.

Results

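The Janus kinases (JAKs), the signal transducers and activators of transcription (STATs) and the suppressors of cytokine signaling (SOCS) were followed here as a set of 10 genes, chosen by name. The choice was made with earlier results of these data known. The set holds the kinases *Jak1*, *Jak2* and *Jak3*, the transcription factors *Stat3*, *Stat5a* and *Stat6*, and the inhibitors *Socs1*, *Socs2*, *Socs3* and *Cish*. All 10 were found, each under a single Ensembl identifier, among the 49315 genes of the count table, and all 10 had enough counts to be tested. The data are bulk RNA-sequencing of brains taken 14 d after stroke, 6 from mice carrying WT bone marrow (BM) cells and 6 from mice carrying *Tet2*-KO BM cells, and the question was how the brain transcriptome differed between them. The paper names the sequenced tissue as whole brains in its results and as whole hemispheres in its discussion.

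All 12 animals were male CD45.1 Pep Boy mice aged 8 to 12 weeks at transplant, irradiated with the head shielded. In the *Tet2*-KO group 10% of the transplanted BM cells came from CD45.2 donors lacking *Tet2*, and in the WT group the same 10% came from CD45.2 *Tet2*+/+ donors. The other 90% came in both groups from CD45.1 *Tet2*+/+ donors, and the recipients themselves kept *Tet2*, so that the deletion was limited to a part of the blood-forming cells and their progeny. Stroke was induced in all mice 8 to 10 weeks later by occluding the middle cerebral artery for 30 min. The labels name control cells as the treatment of both groups, and the groups were taken from the titles and genotype entries. *Tet2* itself was at 126 to 147 CPM in the WT group and 117 to 137 CPM in the *Tet2*-KO group (counts scaled by library size and TMM factor). This cannot check the labels, because most cells of the brain came from the recipient.

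In this pathway a cytokine brings together the chains of its receptor, the JAKs bound to those chains phosphorylate each other and the receptor, and STATs recruited to the receptor are phosphorylated and move to the nucleus as dimers. Genes switched on by STATs include those of the SOCS proteins, which bind receptors or kinases and dampen the signal that induced them. In the brain after ischemia the pathway is best known for STAT3 in reactive astrocytes and for cytokine responses of microglia and of leukocytes that enter from the blood.

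Library totals ranged from 12000261 to 15340787 counts among WT brains and from 12625047 to 21049763 among *Tet2*-KO brains. Of all genes 20290 passed the expression filter, and the median log2 fold change of *Tet2*-KO over WT among them was 0.010. Markers of neurons, astrocytes and oligodendrocytes were abundant in every brain, for example *Snap25* at 862 to 1553 CPM and *Mbp* at 1920 to 2739 CPM. The labels list the 12 brains as separate samples, and libraries of a group differed by more than sampling noise, so each was counted as 1 replicate.

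With *Tet2*-KO BM cells 8 of the 10 genes had a lower mean level than with WT BM cells, by 2.60-fold in *Socs3* and 1.62-fold in *Socs1* at the top, whereas *Socs2* and *Cish* were close to equal. The median log2 fold change of the 10 genes was -0.52. None of them passed an adjusted p of 0.05 in edgeR's quasi-likelihood test over all genes, where 0.0246% of genes were lower and 0% higher at that level. Without adjustment, 7 of the 10 were lower at a p below 0.05 and 0 were higher, against 12.2% and 10.8% of all genes. The adjusted p of these 7 lay between 0.117 and 0.211. The call depended on the test and on a single mouse. The Wald test of DESeq2 placed 5 of the 10 lower and 0 higher past its adjusted threshold (3.32% and 0.922% of all genes). limma-voom placed 4 lower and 0 higher (6.38% and 2.8%), and edgeR without *Tet2*-KO replicate 5 placed 3 lower and 0 higher (7.3% and 3.7%). *Jak3*, *Stat6* and *Socs3* were in all 3 of these counts, *Stat5a* in those of DESeq2 and limma-voom, and *Socs1* in that of DESeq2. In no gene did the groups separate fully, whereas over all genes the *Tet2*-KO mice lay wholly below the WT mice in 0.641% and wholly above in 0.453%. In bulk tissue, fewer cells of a type and less RNA per cell cannot be told apart.

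**Figure D1:**
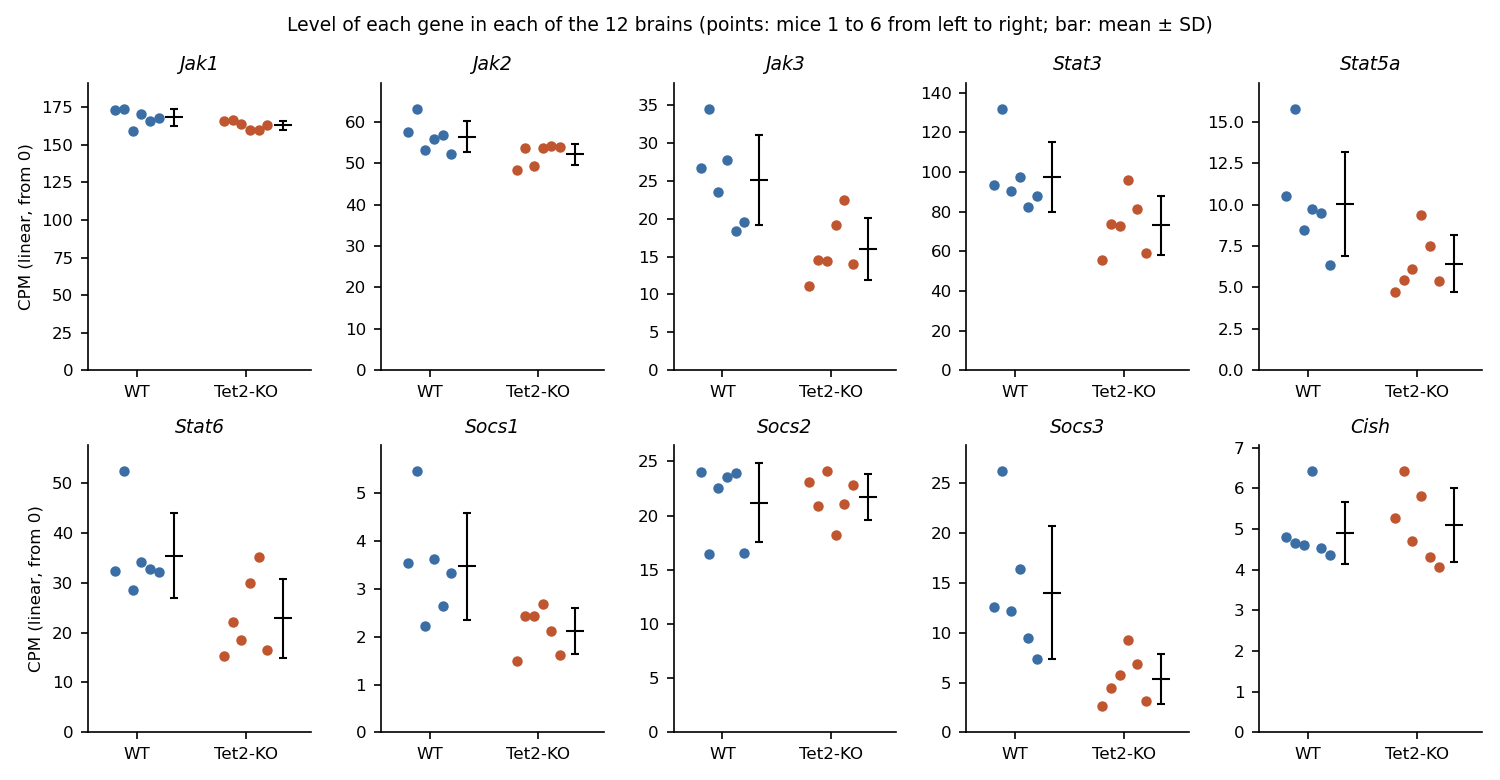
Level of each of the 10 genes in each brain, in CPM on linear axes from 0, with points for replicates 1 to 6 of the WT (blue) and *Tet2*-KO (orange) groups and bars for the mean ± SD. WT replicate 2 is the highest WT mouse in 8 of the 10 genes, and *Jak1*, *Jak2*, *Socs2* and *Cish* lie at similar levels in both groups.

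Among the kinases the lower level lay mainly in *Jak3*. *Jak1* (ENSMUSG00000028530, chr4:101152367-101265282, GRCm38), which serves most interferon and interleukin receptors and is found in nearly all cells, was at 159 to 174 CPM (median 169) in WT mice and at 160 to 167 CPM (median 163) in *Tet2*-KO mice. Its *Tet2*-KO range lay within the WT range. It had a log2 fold change of -0.046 (standard error, SE, of 0.039, with adjusted p = 0.507 in edgeR), and its 95% confidence interval ran from -0.13 to 0.036.

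*Jak2* (ENSMUSG00000024789, chr19:29251828-29313080), the kinase of the receptors for erythropoietin, growth hormone, interferon gamma and the common beta chain cytokines, was at 52.2 to 63.0 CPM (median 56.3) in WT mice and at 48.3 to 54.1 CPM (median 53.6) in *Tet2*-KO mice. All 6 *Tet2*-KO mice were below the WT mean, and 2 of them were lower than any WT mouse. The log2 fold change of -0.11 (SE 0.053, with adjusted p = 0.211 in edgeR) was small, and its unadjusted p of 0.0471 stayed below 0.05 in 5 of 12 fits with a mouse omitted. With upper quartile scaling the unadjusted p was 0.122.

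*Jak3* (ENSMUSG00000031805, chr8:71676296-71690575), which binds the common gamma chain and is largely confined to blood cells, was at 18.4 to 34.5 CPM (median 25.1) in WT mice and at 11.2 to 22.5 CPM (median 14.5) in *Tet2*-KO mice. In the *Tet2*-KO group 4 of 6 mice were lower than any WT mouse, and replicates 4 and 5, at 19.2 and 22.5 CPM, reached into the WT range. The mean was 25.1 ± 5.94 CPM in the WT group and 16.0 ± 4.11 CPM in the *Tet2*-KO group (± SD over 6 mice each), a difference of -36.4%. The log2 fold change was -0.65 (SE 0.18, with adjusted p = 0.121 in edgeR), or -0.77 with *Tet2*-KO replicate 5 left out and -0.54 with WT replicate 2 left out. *Insl3*, which overlaps it by 404 exon bases on the same strand, had 0 to 10 counts per mouse against 180 to 481 for *Jak3*.

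All 3 STAT genes had lower levels in the *Tet2*-KO group. *Stat3* (ENSMUSG00000004040, chr11:100885098-100939540), the factor of the interleukin-6 family, was at 82.5 to 132 CPM (median 91.9) in WT mice and at 55.5 to 95.8 CPM (median 73.4) in *Tet2*-KO mice. Of the *Tet2*-KO mice 5 were lower than any WT mouse, and replicate 4 was at 95.8 CPM, above the WT median. The log2 fold change was -0.41 (SE 0.14, with adjusted p = 0.141 in edgeR). No alternative took *Stat3* past the adjusted threshold, the lowest adjusted p being 0.0524 over 19 alternatives and the highest 0.286.

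*Stat5a* (ENSMUSG00000004043, chr11:100859351-100885169), which with its near copy *Stat5b* serves receptors such as those for interleukin-2, GM-CSF and prolactin, was the least abundant STAT of the set also per length, at 6.35 to 15.8 CPM (median 9.60) in WT mice and at 4.71 to 9.36 CPM (median 5.78) in *Tet2*-KO mice. In each group 4 of 6 mice lay outside the range of the other. The mean was 10.1 ± 3.15 CPM in the WT group and 6.42 ± 1.73 CPM in the *Tet2*-KO group (± SD over 6 mice each), a log2 fold change of -0.64 (SE 0.21, with adjusted p = 0.128 in edgeR). *Stat5a* and *Stat3* lie tail to tail and share 72 exon bases on opposite strands. The strand setting of the counting is not given in the sources used here, so a few reads of *Stat3* could be among those of *Stat5a*.

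*Stat6* (ENSMUSG00000002147, chr10:127642986-127660957), the factor of interleukin-4 and interleukin-13, was at 28.5 to 52.3 CPM (median 32.6) in WT mice and at 15.4 to 35.1 CPM (median 20.2) in *Tet2*-KO mice. In the *Tet2*-KO group 4 of 6 mice were lower than any WT mouse, and replicate 5, at 35.1 CPM, was above 5 of the 6 WT mice. The mean was 35.4 ± 8.49 CPM in the WT group and 22.9 ± 7.94 CPM in the *Tet2*-KO group (± SD over 6 mice each). The log2 fold change was -0.63 (SE 0.22, with adjusted p = 0.148 in edgeR), and it was -0.79 without *Tet2*-KO replicate 5.

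The inhibitors divided into *Socs1* and *Socs3*, with lower levels in the *Tet2*-KO group, and *Socs2* and *Cish*, with similar levels in both. *Socs3* (ENSMUSG00000053113, chr11:117966079-117970047), which blocks JAKs at the gp130 receptors and is itself a STAT3 target, was at 7.38 to 26.2 CPM (median 12.4) in WT mice and at 2.66 to 9.31 CPM (median 5.13) in *Tet2*-KO mice. In each group 5 of 6 mice lay outside the range of the other. WT replicate 2 was the highest at 26.2 CPM and *Tet2*-KO replicate 1 the lowest at 2.66 CPM. The mean was 14.02 ± 6.69 CPM in the WT group and 5.37 ± 2.48 CPM in the *Tet2*-KO group (± SD over 6 mice each), a difference of -61.6%, on 93 to 365 and 41 to 181 counts per mouse. The log2 fold change of -1.38 (SE 0.36, with adjusted p = 0.117 in edgeR) had a 95% confidence interval from -2.18 to -0.58. With a mouse left out the log2 fold change ran from -1.63 (*Tet2*-KO replicate 4 omitted) to -1.11 (WT replicate 2 omitted), and the adjusted p lay between 0.0174 and 0.230 over 19 alternatives. An exact two-sided permutation test of *Socs3* alone gave p = 0.00433, where the smallest p possible is 0.00216.

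*Socs1* (ENSMUSG00000038037, chr16:10782240-10785536), which inhibits JAKs directly and holds back the interferon gamma response, was at 2.23 to 5.45 CPM (median 3.43) in WT mice and at 1.49 to 2.67 CPM (median 2.27) in *Tet2*-KO mice. The *Tet2*-KO mice all lay below the WT mean, and 3 of them below every WT mouse. The mean was 3.47 ± 1.11 CPM in the WT group and 2.12 ± 0.479 CPM in the *Tet2*-KO group (± SD over 6 mice each). These levels rest on 31 to 76 counts per WT mouse and 21 to 52 per *Tet2*-KO mouse. Its log2 fold change of -0.69 (SE 0.21, with adjusted p = 0.123 in edgeR) had a 95% confidence interval from -1.14 to -0.25.

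*Socs2* (ENSMUSG00000020027, chr10:95385362-95417180), best known for limiting growth hormone signaling, was at 16.5 to 24.0 CPM (median 23.0) in WT mice and at 18.2 to 24.1 CPM (median 21.9) in *Tet2*-KO mice. WT replicate 2, the highest WT mouse in the 8 genes described above, was the lowest WT mouse here at 16.5 CPM. The log2 fold change was 0.034 (SE 0.11, with adjusted p = 0.885 in edgeR), with a 95% confidence interval from -0.19 to 0.26. The values of *Socs3* (-1.38) and *Socs1* (-0.69) lay outside this interval, but the interval of *Socs1* reached up to -0.25. The ratio of *Socs1* to *Socs2*, which compares these 2 genes directly, did not pass (exact permutation adjusted p = 0.0853). The sign of the value was not fixed, since it was -0.029 without WT replicate 2.

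*Cish* (ENSMUSG00000032578, chr9:107296026-107302784), a STAT5 target that encodes an inhibitor of STAT5 signaling, was at 4.36 to 6.42 CPM (median 4.63) in WT mice and at 4.08 to 6.42 CPM (median 4.99) in *Tet2*-KO mice. The ranges nearly coincided. Its log2 fold change was 0.066 (SE 0.13, with adjusted p = 0.812 in edgeR), with a 95% confidence interval from -0.22 to 0.35, and it was -0.013 without *Tet2*-KO replicate 2. The antisense genes *Gm17041* and *Gm17040*, which overlap its exons, had 0 to 2 counts per mouse.

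**Figure D2:**
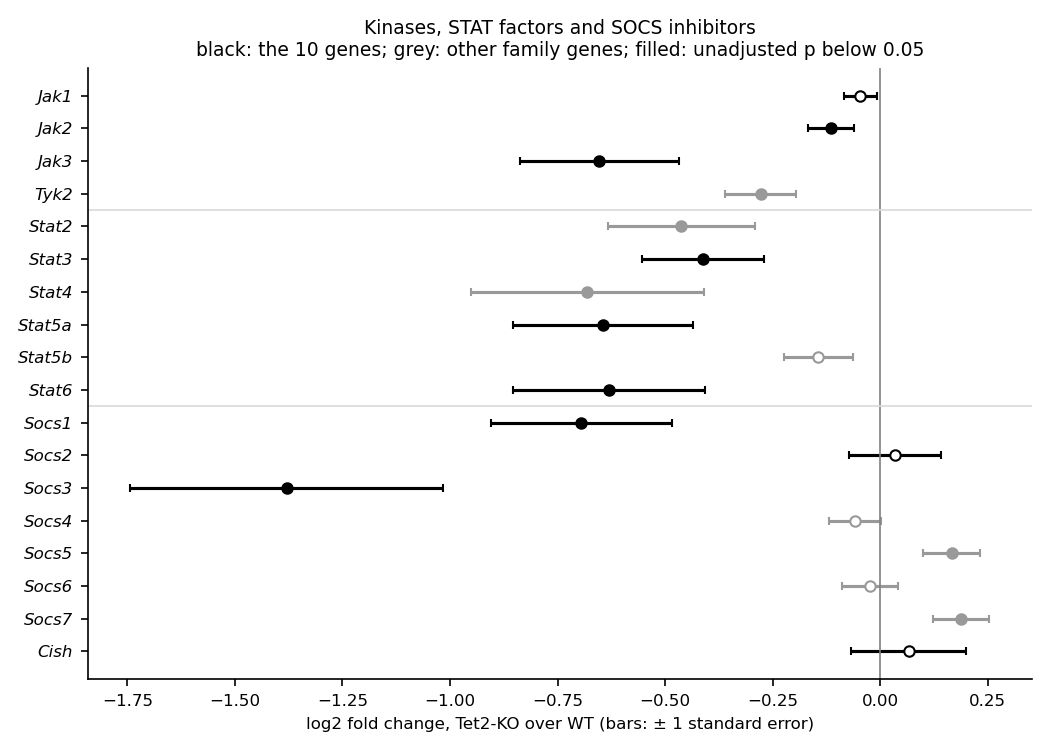
Log2 fold change of *Tet2*-KO over WT with its SE for the 10 genes (black) and other family members (grey), filled where the unadjusted edgeR p was below 0.05. *Socs3* lies farthest to the left at -1.38, while *Socs2* and *Cish* lie at 0.034 and 0.066.

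*Socs3* and *Cish* are the members with the most unlike differences between the groups. Both carry, near their RefSeq start, the letters that STAT dimers are known to bind, TTCNNNGAA, the gamma-activated site. Their promoters are shown for that reason, each 5′ to 3′ on the strand of the gene, from 250 bases before to 50 after the transcription start of RefSeq (GRCm38.p6), with the matches in capitals. That of *Socs3* lies at chr11:117969317-117969616 on the minus strand and that of *Cish* at chr9:107296409-107296708 on the plus strand.
Socs3: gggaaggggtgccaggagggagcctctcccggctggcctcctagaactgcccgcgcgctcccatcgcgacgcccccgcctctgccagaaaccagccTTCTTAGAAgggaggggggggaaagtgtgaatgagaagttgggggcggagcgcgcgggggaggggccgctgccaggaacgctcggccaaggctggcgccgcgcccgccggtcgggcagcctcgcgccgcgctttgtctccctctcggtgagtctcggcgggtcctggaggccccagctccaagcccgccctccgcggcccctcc
Cish: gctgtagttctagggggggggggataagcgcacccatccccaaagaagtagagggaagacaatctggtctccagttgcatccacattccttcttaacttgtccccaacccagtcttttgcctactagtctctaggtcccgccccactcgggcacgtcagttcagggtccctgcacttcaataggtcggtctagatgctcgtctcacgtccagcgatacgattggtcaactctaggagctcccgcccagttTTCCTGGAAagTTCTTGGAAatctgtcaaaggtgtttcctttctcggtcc

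*Socs3* held 1 match, TTCTTAGAA, which began 154 bases before the start. *Cish* held 2, TTCCTGGAA at the start itself and TTCTTGGAA 11 bases after it. The motif reads the same on both strands, so a search of 1 strand finds all matches, and 8.3% of 32851 promoter windows of this length hold it. A window was given for 9 of the 10 genes, all but *Socs2*, and the other 7 genes held no match. None of the 9 genes held the form with an added base between the arms that STAT6 is known for, TTCNNNNGAA, which is in 6.95% of windows. These matches describe the sequence and not binding, which was not measured. The start used for *Socs3* was that of RefSeq, and the last 20 bases of its window were in no GENCODE M21 transcript of the gene. The windows of *Socs3* and *Cish* lie wholly inside the GENCODE spans given above for these genes. Whether the matches lie in promoter sequence was not tested.

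Levels can be compared between genes only per length, here as CPM per kilobase of exon. With WT BM cells *Jak1* was highest at 23.3 ± 0.768, followed by *Jak2* at 11.2 ± 0.763, *Stat3* at 10.2 ± 1.85 and *Stat6* at 8.04 ± 1.93 CPM per kilobase (SD, n = 6). *Socs3* at 4.85 ± 2.31 and *Jak3* at 4.69 ± 1.11 CPM per kilobase came next, then *Socs2* at 2.22 ± 0.383, *Stat5a* at 1.41 ± 0.442, *Socs1* at 1.19 ± 0.383 and *Cish* at 0.763 ± 0.118 (SD, n = 6). The ranges over the WT mice were apart only between *Jak1* and *Jak2* and between *Jak3* and *Socs2*, and all other neighbours in this order overlapped. With *Tet2*-KO BM cells the order changed in 2 places. *Socs3*, at 1.86 ± 0.859 CPM per kilobase, came after *Jak3* (2.99 ± 0.769) and *Socs2* (2.28 ± 0.221), and *Socs1*, at 0.731 ± 0.165, came after *Cish* (0.794 ± 0.141; SD, n = 6 for each). Only *Jak1* and its neighbour *Jak2* had ranges apart in that group.

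Whether members of a class differed from each other in their change was tested on the log2 ratio of their CPM within each brain, which hardly depends on how the libraries were scaled. Of the 12 pairs within a class, 6 passed an adjusted p of 0.05 (exact two-sided permutation tests, Benjamini-Hochberg adjustment over the 12 pairs). The ratio of *Socs3* to *Cish* fell by 1.43 on the log2 scale, from 1.39 ± 0.582 with WT to -0.036 ± 0.672 in the *Tet2*-KO group (SD, n = 6 per group; exact permutation p = 0.00216, adjusted p = 0.0260). All 6 *Tet2*-KO mice lay below all 6 WT mice in this ratio, and p is the smallest that 6 mice against 6 can give.

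The other ratios between inhibitors followed the division into *Socs1* and *Socs3* against *Socs2* and *Cish* only in part. The ratio of *Socs2* to *Socs3* rose by 1.42 and that of *Socs1* to *Cish* fell by 0.71 (exact permutation p = 0.00649 and adjusted p = 0.0260 for both, n = 6 per group). *Socs1* and *Socs3* also differed, with a ratio that rose by 0.72 (exact permutation p = 0.0216, adjusted p = 0.0433, n = 6 per group). *Socs2* and *Cish* had a log2 ratio of 2.08 in both groups, with a difference of -0.0022 (SE 0.18, exact permutation p = 0.989, n = 6 per group). The ratio of *Socs1* to *Socs2* differed by -0.71, as much as that of *Socs1* to *Cish*, but did not pass (exact permutation adjusted p = 0.0853, n = 6 per group).

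Among the kinases the ratio of *Jak1* to *Jak3* rose by 0.61 and that of *Jak2* to *Jak3* by 0.54 (exact permutation p = 0.0152 and adjusted p = 0.0364 for both, n = 6 per group), with 4 of 6 *Tet2*-KO mice above every WT mouse in each. The ratio of *Jak1* to *Jak2* differed by 0.068 (SE 0.047, exact permutation p = 0.180, n = 6 per group). No pair of STAT genes passed (exact permutation adjusted p of 0.101 to 0.841), with differences of 0.25 for *Stat3* to *Stat6*, 0.20 for *Stat3* to *Stat5a* and 0.044 for *Stat5a* to *Stat6* (SEs 0.12, 0.12 and 0.15). All 6 pairs that passed kept an unadjusted p below 0.05 in each of the 12 fits that left out a mouse. After adjustment the number past 0.05 was 0 without WT replicate 1 or 2 or *Tet2*-KO replicate 1, 2 or 6, where the lowest adjusted p was 0.0519 and 6 or 7 pairs had an unadjusted p below 0.05. It was 2 without WT replicate 3 or 4, 3 without *Tet2*-KO replicate 3, and 5 to 7 without any of the others.

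**Figure D3:**
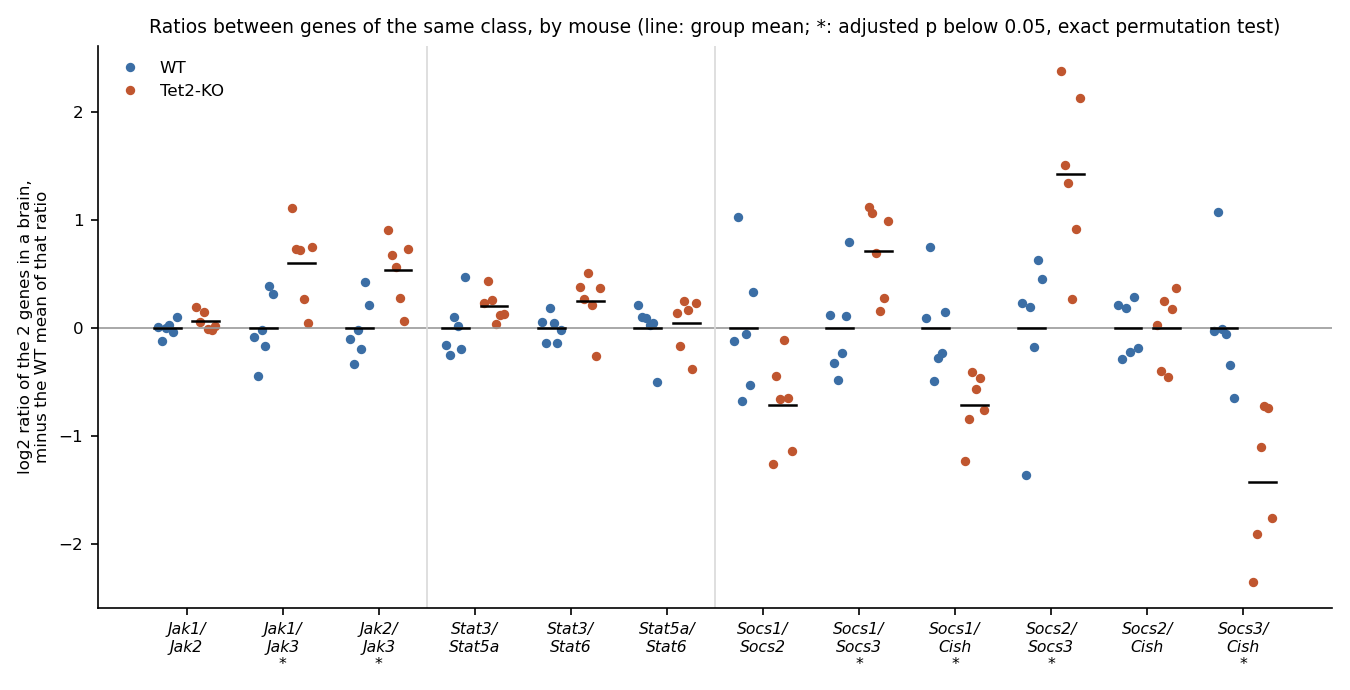
Log2 ratio of each pair of same-class genes in each brain, after subtraction of the WT mean of that pair, with lines at the group means and stars at an adjusted p below 0.05. In *Socs3*/*Cish* all *Tet2*-KO mice (orange) lie below all WT mice (blue), and in *Socs2*/*Cish* the groups lie at the same height.

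Other kinase and STAT genes showed the same direction. *Tyk2*, the kinase of the type I interferon and interleukin-12 receptors, was at 35.4 ± 3.62 CPM in the WT group and 29.2 ± 3.34 CPM in the *Tet2*-KO group (± SD over 6 mice each), a log2 fold change of -0.28 (adjusted p = 0.121 in edgeR). *Stat2*, a factor of the type I interferon response, had a log2 fold change of -0.46, and *Stat4*, a factor of T cells, one of -0.68 on 8 to 29 counts per mouse (adjusted p = 0.154 and 0.164 in edgeR). *Stat5b* had a log2 fold change of -0.14 (SE 0.081, with adjusted p = 0.297 in edgeR) beside -0.64 for *Stat5a*, and the difference between the genes was not tested. Of the other SOCS genes, *Socs5* and *Socs7* had log2 fold changes of 0.17 and 0.19 (adjusted p = 0.161 and 0.136 in edgeR), *Socs4* one of -0.058 and *Socs6* one of -0.023, whose sign turned to 0.0099 with upper quartile scaling.

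Beyond the set, lists of 108 further genes of the pathway were examined, of which 81 could be tested. These lists too were chosen with earlier results of these data known. At an unadjusted p below 0.05, 46 of the 81 were lower and 3 higher with *Tet2*-KO BM cells, against 12.2% and 10.8% of all genes, and the median log2 fold change was -0.45. None passed edgeR's adjusted threshold, while DESeq2 placed 19 lower and 0 higher past it, where it placed 3.32% and 0.922% of all genes. Without *Tet2*-KO replicate 5, edgeR placed 36 lower and 0 higher past it, beside 7.3% and 3.7% of all genes. With the tested phosphatase and PIAS genes included, the list of other inhibitors had a median of -0.058, and 3 of its 13 genes were lower and 2 were higher at that level. *Ptpn1*, a phosphatase that acts on JAK2 and TYK2, was among the 3, between 60.8 and 83.8 CPM in the WT group and between 39.2 and 60.7 CPM in the *Tet2*-KO group (log2 fold change -0.45, adjusted p = 0.110 in edgeR), with no overlap between the groups. *Sh2b3*, an adaptor that dampens JAK2, had a log2 fold change of -0.26 (adjusted p = 0.148 in edgeR).

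Of the receptors, those with the common gamma chain, which binds JAK3, or the common beta chain had the lowest median. Of 12 tested common gamma and beta chain receptor genes, 11 were lower at an unadjusted p below 0.05 and 0 higher. Over all genes the shares were 12.2% and 10.8%, and the median log2 fold change of the 12 genes was -0.99. *Il7r*, the interleukin-7 receptor, was between 2.87 and 6.67 CPM in the WT group and between 0.434 and 2.28 CPM in the *Tet2*-KO group, with no overlap (log2 fold change -1.77, adjusted p = 0.0752 in edgeR). *Il4ra*, the receptor chain that recruits STAT6, was at 37.6 ± 10.8 and 16.6 ± 6.89 CPM (± SD over 6 mice each), with a log2 fold change of -1.18 (adjusted p = 0.112 in edgeR).

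The list of gp130 family receptors had 6 of 9 genes lower and 0 higher with unadjusted p below 0.05, with a median of -0.65. The shares over all genes were 12.2% and 10.8%. *Il6st*, which encodes gp130 itself, was at 237 ± 43.1 CPM in the WT group and 173 ± 38.0 CPM in the *Tet2*-KO group (± SD over 6 mice each), with a log2 fold change of -0.45 (adjusted p = 0.134 in edgeR), and *Lepr*, the leptin receptor, had a log2 fold change of -0.84 (adjusted p = 0.110 in edgeR). The receptors for leukemia inhibitory factor and ciliary neurotrophic factor did not share this, with log2 fold changes of 0.049 for *Lifr* and 0.11 for *Cntfr* (adjusted p = 0.520 and 0.256 in edgeR). Of the 8 tested interferon, interleukin-10 and interleukin-12 family receptor genes, 6 were lower and 0 higher at that level, with a median of -0.46, and among them *Ifnar1* and *Ifngr2* each had a log2 fold change of -0.28 (adjusted p = 0.110 and 0.123 in edgeR). The list of hormone-type receptors had a median of -0.038, and none of the 3 tested, *Epor* (0.10), *Ghr* (-0.038) and *Prlr* (-0.16), had an unadjusted p below 0.05. This list leaves out *Lepr*, also a hormone receptor, which was counted with the gp130 family and had an unadjusted p of 0.00147 in edgeR.

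The cytokines themselves were mostly near the limit of detection. Only 8 of 30 ligand genes had enough counts, with a median of -0.30. At an unadjusted p below 0.05, 2 were lower and 0 higher, not far from the 12.2% and 10.8% of all genes. The lower ones were *Osm* and *Il15*. *Osm*, which encodes oncostatin M, was at 1.79 ± 0.954 and 0.919 ± 0.566 CPM (± SD over 6 mice each). Its log2 fold change was -1.01, and that of *Il15* was -0.49 (adjusted p = 0.147 and 0.196 in edgeR). *Il4* had a log2 fold change of 0.20 and *Thpo* of 0.14 (adjusted p = 0.300 and 0.613 in edgeR). The other 22, *Ifng* with 0 to 2 counts per mouse among them, were too low for a test at this depth.

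Known STAT targets other than the SOCS genes were lower for the most part. Of 23 tested, 14 were lower and 1 higher with unadjusted p below 0.05, beside 12.2% and 10.8% of all genes. The median of the 23 was -0.58. *Pim1*, a kinase gene induced by STAT3 and STAT5, was at 10.3 ± 2.97 CPM in the WT group and 5.69 ± 1.64 CPM in the *Tet2*-KO group (± SD over 6 mice each), with a log2 fold change of -0.87 (adjusted p = 0.110 in edgeR). *Irf1*, a factor induced by interferons, was at 18.7 ± 3.61 and 10.9 ± 3.44 CPM (± SD over 6 mice each), with a log2 fold change of -0.78 (adjusted p = 0.110 in edgeR). The related *Pim3* was the 1 higher gene, with a log2 fold change of 0.17 (adjusted p = 0.153 in edgeR), and *Pim2* had one of 0.16 (adjusted p = 0.295 in edgeR).

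**Figure D4:**
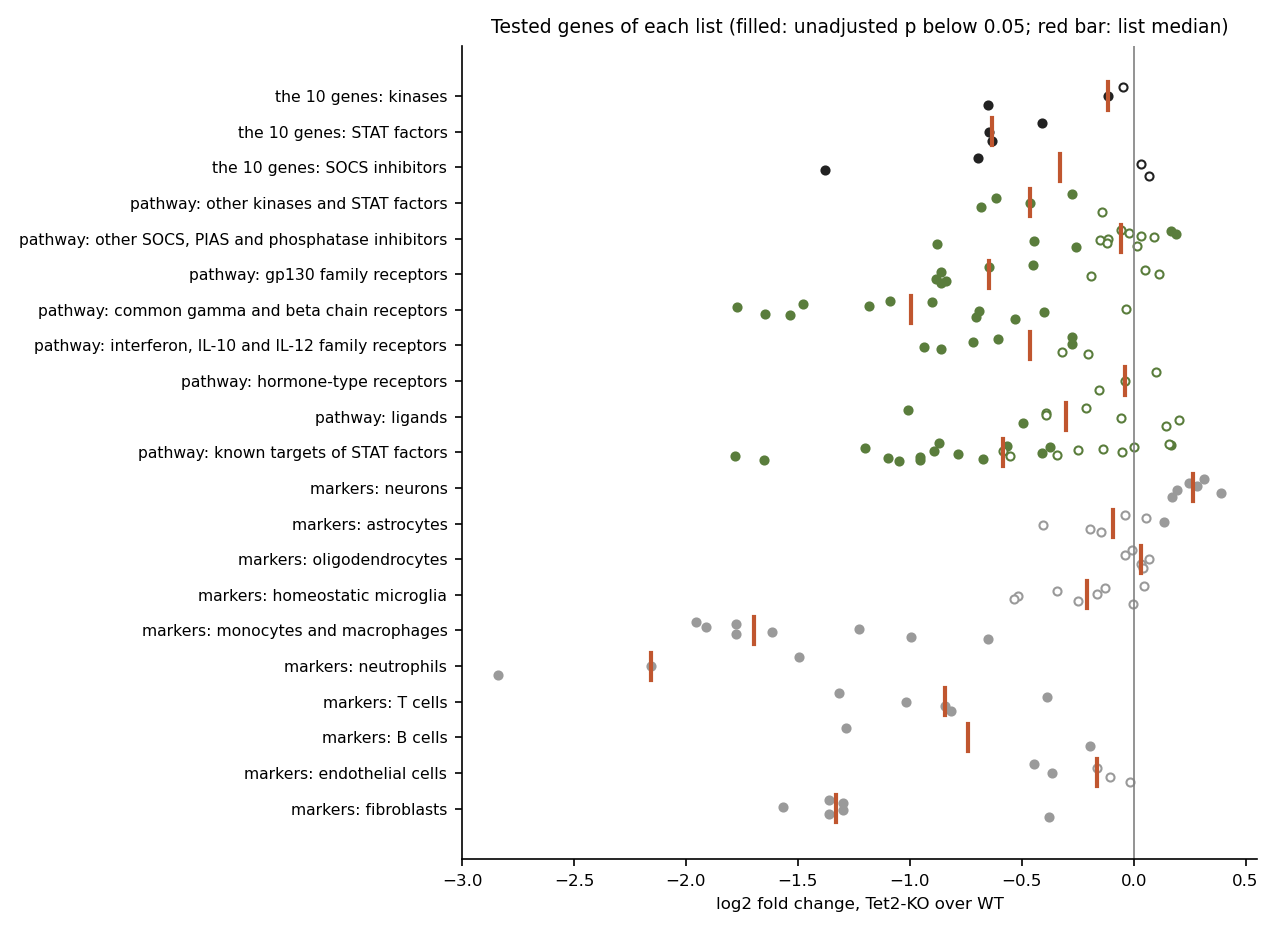
Log2 fold change of *Tet2*-KO over WT for every tested gene of each list, filled where the unadjusted edgeR p was below 0.05, with red bars at the list medians. The common gamma and beta chain receptors have the lowest median of the pathway lists, -0.99, and the medians of the monocyte and macrophage, neutrophil and fibroblast markers lie lower still.

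Genes listed here as markers of blood-borne and stromal cells were lower as well. The paper counted macrophages and T cells in stained brain sections at the same time after stroke, and reports similar numbers in both groups. Whether the lower marker levels reflect fewer such cells was not tested, nor was the cell type in which the transcripts arose. All 8 monocyte and macrophage markers were lower at an unadjusted p below 0.05, where 12.2% of all genes were. Their median log2 fold change was -1.70. Their summed level was 490 to 1218 CPM in the WT group against 51.4 to 620 CPM in the *Tet2*-KO group. None of the 8 passed the adjusted threshold in edgeR or DESeq2. In edgeR without *Tet2*-KO replicate 5, 6 of them were lower past it, beside 7.3% of all genes. All 6 fibroblast markers were also lower at the unadjusted level, with a median of -1.33 and sums of 581 to 1313 and 147 to 735 CPM. All 5 tested T cell markers of 7 were lower (median -0.84, sums of 13.3 to 21.7 and 7.49 to 13.4 CPM), and both tested B cell markers of 5 (median -0.74, sums of 35.0 to 43.8 and 26.7 to 33.3 CPM). Of 9 neutrophil markers 3 could be tested and all 3 were lower (median -2.16, sums of 6.35 to 15.2 and 2.00 to 5.18 CPM). *S100a8* and *S100a9* among them also passed the adjusted threshold (adjusted p = 0.0364 in edgeR for both), being 2 of the 5 genes that did so over all genes, while the defining *Ly6g* had 0 or 1 counts in each WT mouse and was at 0 in every *Tet2*-KO mouse.

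Markers of cells resident in the brain had medians nearer to 0. Of the 8 homeostatic microglia markers 0 had an unadjusted p below 0.05, with a median of -0.21 and sums of 817 to 1434 CPM in the WT group and 392 to 1044 CPM in the *Tet2*-KO group. All 6 neuron markers were higher at that level, with a median of 0.26 and sums of 2605 to 3850 and 3427 to 4696 CPM. Of all genes 12.2% were lower and 10.8% higher at that level. Astrocyte markers had a median of -0.093 with 1 of 6 higher, oligodendrocyte markers one of 0.032 with 0 of 5 past that level, and endothelial markers one of -0.16 with 2 of 5 lower. The part of these cell types in the differences of the JAK, STAT and SOCS genes was not tested.

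The same mice stood out in both. WT replicate 2 had the highest summed level of the monocyte and macrophage markers, 1218 CPM, and the lowest of the neuron markers, 2605 CPM, and it was the highest WT mouse in *Jak1*, *Jak2*, *Jak3*, all 3 STAT genes, *Socs1* and *Socs3*. *Tet2*-KO replicate 1 had the lowest monocyte and macrophage sum, 51.4 CPM, and the lowest homeostatic microglia (392 CPM), oligodendrocyte, fibroblast and B cell sums. It was the lowest *Tet2*-KO mouse in *Jak2*, *Jak3*, the 3 STAT genes, *Socs1* and *Socs3*. *Tet2*-KO replicate 5, at 620 CPM, reached the WT range in the monocyte and macrophage sum. That mouse was the highest *Tet2*-KO mouse in *Jak2*, *Jak3* and *Stat6* but not in *Stat3*, *Stat5a*, *Socs1* and *Socs3*, where replicate 4 was. *Socs2* and *Cish* did not share this order of mice.

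**Figure D5:**
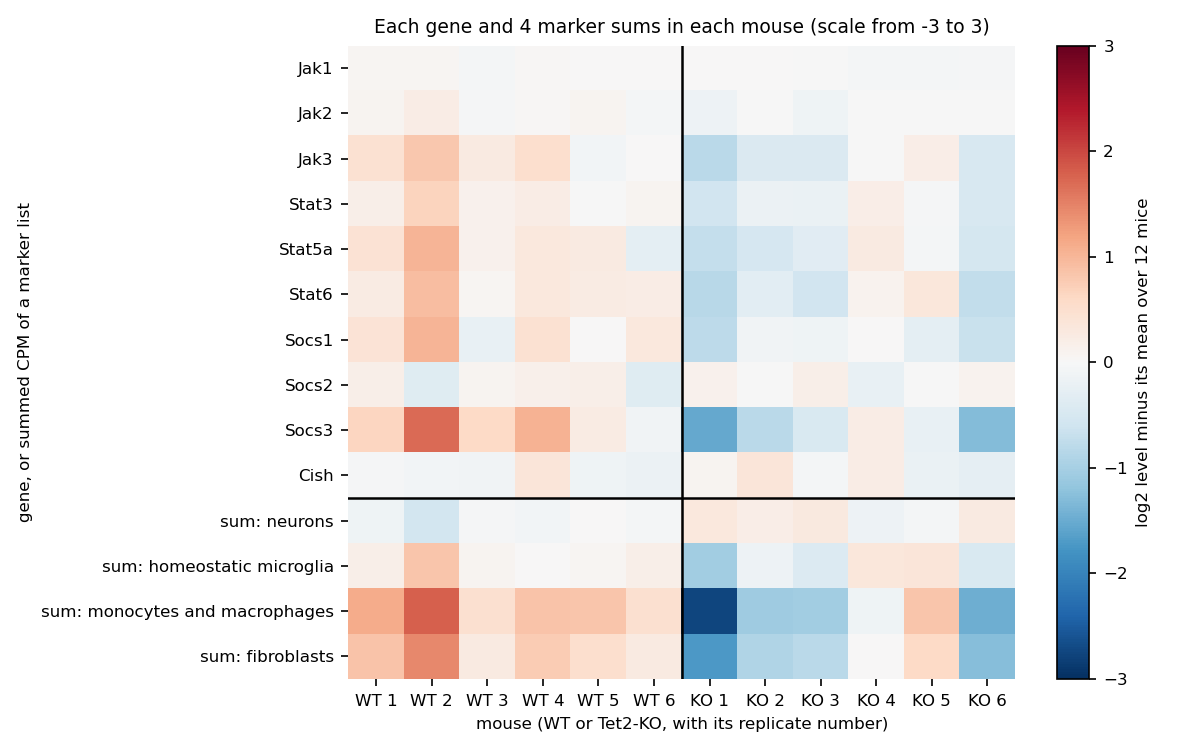
Log2 level of each of the 10 genes and of 4 summed marker lists in each mouse, relative to its mean over the 12 mice, from blue (below the mean) to red (above), on a scale from -3 to 3. WT replicate 2 is red and *Tet2*-KO replicate 1 blue from *Jak3* to *Socs1* and in *Socs3*, and the rows of *Socs2* and *Cish* do not follow the monocyte and macrophage row.

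As a description of which other genes varied in step with the members, the log2 CPM of each member was correlated with that of every other tested gene over the 12 mice after the group means were removed. The points share their libraries and depth, so the highest of 20290 values will be large. *Jak3* was closest to *Gdf15* and *Il4ra* (both r = 0.967) and *Tmem173* (r = 0.965). *Stat3* was closest to *Srebf1* (r = 0.982), *Lamc1* (r = 0.977) and *A2m* (r = 0.973), and *Stat6* to *Rinl* (r = 0.984), *Irf1* (r = 0.980) and *Il10rb* (r = 0.978). *Stat5a* was closest to *Plat* (r = 0.963), *Casp6* (r = 0.959) and *Emp2* (r = 0.957). For *Socs3* the closest were *Pou2f2* (r = 0.963), *Dtx4* (r = 0.959) and *Pld2* (r = 0.954), and for *Socs1* they were *Slc22a4* (r = 0.954), *Hyal2* (r = 0.943) and *Hyal1* (r = 0.942). The highest values were lower for *Jak1* (*Gm43149*, r = 0.918), *Jak2* (*Gm10863*, r = 0.925), *Socs2* (*4930447A16Rik*, r = 0.920) and *Cish* (*Supt5*, r = 0.913), the 4 members whose levels varied least between mice of a group.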

How the data were processed

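RNA from the brains of 12 mice was depleted of ribosomal RNA and sequenced as paired reads. Per the study's methods and the submitters' processing notes, the authors trimmed reads with Trimmomatic 0.36, aligned them to mm10 with STAR 2.5.2b and counted unique reads in exons with featureCounts (Subread 1.5.2). The deposited values are these raw counts per gene, not normalized. The annotation release and strand setting are not given in the sources used here.

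Symbols, exon lengths and coordinates came from GENCODE M21 (GRCm38, the same build as mm10), which held 49056 of the 49315 identifiers. Genes kept by filterByExpr were scaled with TMM and tested in edgeR 4.0.16 (R 4.3.3; glmQLFit, robust, and glmQLFTest, no covariates), with Benjamini-Hochberg adjustment over all tested genes and a threshold of 0.05. Ratios of pairs and single genes were tested by exact permutation on log2(CPM + 0.1). Alternatives were the Wald test of DESeq2 1.42.0, limma-voom with sample quality weights (limma 3.58.1), other scalings and filters, a replicate block and each mouse left out. The scripts were tested on simulated data.

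Named are all 10 members, the other JAK and STAT genes (1 is not reported here), of each other pathway list the 2 lower and 2 higher genes of smallest p, of each marker list the 2 most abundant, and for each member the 3 closest genes by correlation. *Tet2*, *Ifng*, *Ly6g*, the other SOCS genes and the overlapping genes were named outside this rule, after their values were seen. The members and lists were chosen with earlier results of these data known. Intervals and counts cover sampling error only.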

Additional observations from a re-analysis of the deposited data

Results flagged for a closer look

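In 3 of the 20 groups checked (10 genes in each of 2 groups) a single mouse stood apart, by a gap to the nearest mouse that took more of the whole range, on the log2 scale, than Dixon's 95% limit for 6 samples. Chance gives such a gap in about 1 in 20 groups. WT replicate 2 was the highest WT mouse in *Stat3*, at 132 CPM, with a gap of 0.641 of the range, and in *Stat6*, at 52.3 CPM, with a gap of 0.705. Without this mouse the log2 fold changes were -0.31 for *Stat3* and -0.49 for *Stat6*. WT replicate 4 was the highest WT mouse in *Cish*, at 6.42 CPM, with a gap of 0.746, and without it the log2 fold change of *Cish* was 0.16.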

How the results depend on the processing

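The number of members past the adjusted threshold was 0 with DESeq2 size factors, upper quartile scaling, either other filter and a replicate block, but 5 with the DESeq2 Wald test, 4 with limma-voom and between 0 and 3 with a mouse left out, the 3 without *Tet2*-KO replicate 5. Under every alternative the members with an unadjusted p below 0.05 numbered 6 or 7 lower and 0 higher. For the other pathway genes past the adjusted threshold, the number was 19 with DESeq2, 34 with limma-voom and 1 without the filter. With a mouse left out it was between 0 and 36, the 36 without *Tet2*-KO replicate 5. The shares of all genes lower and higher moved with these settings. They were 3.32% and 0.922% with DESeq2, 6.38% and 2.8% with limma-voom, and 7.3% and 3.7% without that mouse. Without the filter, 40 of 37685 genes were lower and 4 higher. Of 200 alternative log2 differences of members, 184 kept direction and call and 12 passed the threshold that the main values missed. The 184 include 1 exact permutation test per member, which has no adjusted p and was compared in direction only. The sign turned in 4, all near 0. That of *Socs2* was -0.0073 with limma-voom, -0.029 without WT replicate 2 and -0.027 without WT replicate 6, and ranged up to 0.077, and that of *Cish* was -0.013 without *Tet2*-KO replicate 2 and ranged up to 0.16. The cause was not tested. The number of pairs past the threshold was between 0 and 7 with a mouse left out.

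Deviations from the group means correlated between -0.17 and 0.23 for mice of the same number, and only number 6 matched itself best. These values showed no pairing by replicate number, though they cannot show that the mice were unpaired. With a replicate block, 0 members passed the adjusted threshold and 6 were lower at an unadjusted p below 0.05. A sign-flip test of the pair ratios with that block left 0 pairs past it, with adjusted p of 0.0938 at the lowest and 3 pairs at the smallest unadjusted p that 6 differences allow, 0.0312. Depth limits *Socs1* and *Stat4*, on 21 to 76 and 8 to 29 counts per mouse, and the 22 ligands that were not tested.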
